A study of Homo sapiens with 10 samples.

Results

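The comparison described here set 1 library of the stable U2OS-dTF line against 1 library of mock-transfected U-2 OS cells, a human osteosarcoma line. Neither library holds PcTF, the synthetic chromatin protein of the study, so the comparison describes how far its 2 control cultures lay from each other. Genes were taken as members when they reached 1 FPKM (fragments scaled to transcript length and to the mapped reads of the library) or more in either library. Of 23243 genes present in both tables, 12660 were members, and the other 10583 were below that level in both libraries. Just inside the limit lay MAPK12 at 1.00 FPKM in U2OS-dTF and 0.660 FPKM in mock cells, and just outside it KCTD5 at 0.992 and 0.997 FPKM in the same order.

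U2OS-dTF is a transgenic line made from U-2 OS cells with an integration site and a doxycycline-controlled promoter. It carries dTF, which has the mCherry tag and the VP64 activation domain of PcTF but is truncated and lacks the CBX8 chromodomain that binds methylated histone H3. The U2OS-dTF cells were kept in doxycycline at 1 µg/mL for 96 h, while the mock cells received the lipid transfection vehicle with no plasmid and were grown for up to 96 h. Other U-2 OS libraries of the series, used below for levels only, were 2 stable U2OS-PcTF libraries treated with doxycycline in the same way and 1 library of cells given the PcTF plasmid by transfection. The value for the 2 stable U2OS-PcTF libraries is a mean derived from a pooled column of the authors. The FPKM of stable lines and of mock cells come from separate tables. Their normalization may differ, which the centring described below is meant to offset. With 1 library on each side there was no replicate, so no test was made, and a difference has no check against the spread between cultures. Parental stock, clonal selection, transgene, doxycycline and lipid treatment all changed together between these cultures and cannot be told apart.

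As background, VP64 is a strong transcriptional activation domain that needs a DNA- or chromatin-binding partner to be brought to a promoter, and dTF was designed without one. Osteosarcoma cells of this kind are mesenchymal, secrete collagens and other matrix proteins, and have unstable karyotypes. Lines derived from one stock can therefore differ through selection of clones as well as through treatment.

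Depth was estimated from the value of 1 read in low genes with a single exon. It was near 5.79e+06 reads for U2OS-dTF and 4.87e+06 reads for mock cells. At these depths 97.6% of the low values tested lay on whole reads in each library. The depths were chosen to give a high share, so this share is no separate check of them. Despite the larger estimated depth, U2OS-dTF had fewer genes above 0 FPKM, 13920 against 16089 in mock cells. Its 100 highest genes took 41.2% of all FPKM, against 31.8% in mock cells. Of 12 mesenchymal markers, 8 were at 1 FPKM or more in U2OS-dTF and 10 in mock cells, while COL1A2 and TWIST1 were listed at 0 in both. The 12 summed to 929 and 936 FPKM, and these sums rested mostly on VIM and SPARC. On the centred scale described below, 5 of the 10 members among them were 2-fold or more lower in U2OS-dTF and none was higher. Their median was -0.91, and 31.7% of all members were lower. VIM (vimentin) was at 541 FPKM in U2OS-dTF and 385 FPKM in mock cells, SPARC at 234 and 271 FPKM and COL1A1 at 39.0 and 28.7 FPKM. Among the lower ones, CDH2 was at 18.4 and 98.3 FPKM and FN1 at 15.1 and 42.9 FPKM. RUNX2, the osteoblast regulator, was at 2.66 and 7.30 FPKM. The 12 mesenchymal markers summed to 4075 FPKM in mock SK-N-SH cells and 558 FPKM in mock K562 cells, so their sum does not single out U-2 OS. The 12 K562 markers summed to 13.1 FPKM in U2OS-dTF and 24.3 FPKM in mock cells, against 7561 FPKM in mock K562 cells. The 12 neuroblastoma markers summed to 2.59 and 5.86 FPKM, against 787 FPKM in mock SK-N-SH cells, and the 13 epithelial markers to 9.22 and 7.73 FPKM.

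The 2 control cultures lay far apart. On the log2 scale, after 0.1 FPKM was added to both values and the median of the 9578 genes at 1 FPKM or more in both was set to 0, 3580 members were 2-fold or more higher in U2OS-dTF (28.3%) and 4012 were 2-fold or more lower (31.7%). Another 5068 members lay within 2-fold. A difference of 8-fold or more was reached by 826 members on the higher side and 1148 on the lower side. Genes listed at 0 entered these counts through the added 0.1 FPKM. They were 607 members at 0 in U2OS-dTF and 202 at 0 in mock cells. Low genes alone did not make up the difference, since among the 3412 members at 10 FPKM or more in both libraries 702 were higher and 630 were lower. The median absolute difference over members was 1.28 on the log2 scale, while that between PcTF-transfected and mock cells, which stand in 1 table, was 0.39. In that comparison, which shares the mock library, 15.5% of the same genes were 2-fold or more apart, against 60% between U2OS-dTF and mock cells.

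The difference followed the base composition of the transcripts. In 10 equal bins of GC content, the median difference was -1.0 in the bin of lowest GC (30.7% to 38.04%) and 1.76 in the bin of highest GC (60.6% to 74.4%), with each bin higher than the one before it. In the bin of highest GC 69.3% of members were 2-fold or more higher in U2OS-dTF, against 8.27% in the bin of lowest GC. Between PcTF-transfected and mock cells the same bins ran only from -0.22 to 0.52. Transcript length moved with it as well, from a median of 1.31 in the shortest bin (up to 1212 bases) to -0.93 in the longest (7806 bases or more). The lists below are therefore mostly given with a second median in which every gene was centred on genes of like GC content (20 bins). On that scale 23% of 11969 members with a matched transcript were 2-fold or more higher and 28.5% were lower. The part of GC content and length in single differences was not tested.

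**Figure D1:**
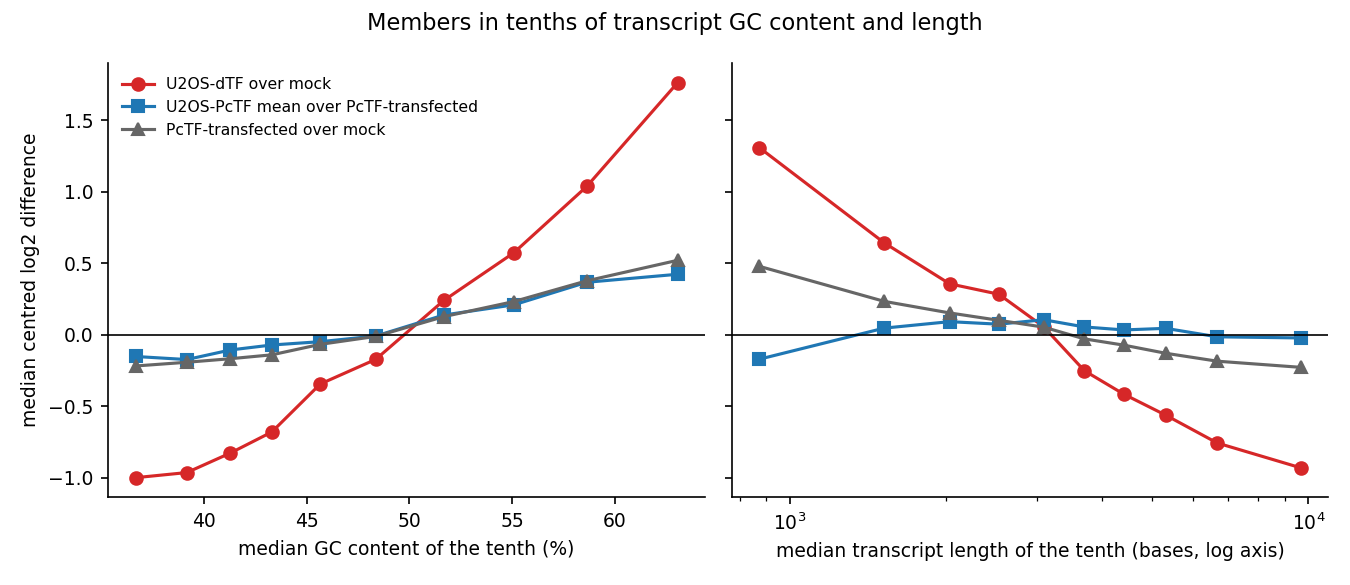
Median centred log2 difference of the members (y axis) in 10 equal bins of transcript GC content in percent (left) and of transcript length in bases on a log axis (right). Red circles are U2OS-dTF over mock, blue squares the U2OS-PcTF mean over PcTF-transfected cells and grey triangles PcTF-transfected over mock. The red line spans -1.0 to 1.76 over GC content, while the grey line, which shares the mock library, spans -0.22 to 0.52.

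Genes of the protein synthesis machinery and of oxidative phosphorylation made up a broad group on the higher side. Of 78 cytosolic ribosomal protein members, 56 were 2-fold or more higher in U2OS-dTF and 2 were lower, with a median of 1.98 (1.82 on the GC scale), against 28.3% higher and a median of -0.12 over all members. RPS14, of the small subunit, was at 2974 FPKM in U2OS-dTF and 188 FPKM in mock cells, a difference of 3.99. RPL38, of the large subunit, was at 5869 and 479 FPKM (3.63), and RPL11, which also binds MDM2, at 5009 and 487 FPKM (3.38). Both subunits contributed, with 20 of 27 RPS genes and 32 of 47 RPL genes higher. These transcripts are short, and within bins of length the list median was 0.80.

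The 68 nuclear genes of the respiratory chain and ATP synthase showed 50 higher (73.5%) and 2 lower (2.94%), against 28.3% and 31.7% of all members. Their median was 1.94 (1.65 on the GC scale). Each of the 4 complexes below contributed. Of complex I 20 of 30 NDUF members were higher, of complex III 6 of 8 UQCR members, of complex IV 10 of 10 COX members and of ATP synthase 11 of 15 members. NDUFB7, a complex I subunit, was at 229 FPKM in U2OS-dTF and 5.98 FPKM in mock cells (5.25). UQCRQ, of complex III, was at 269 and 8.30 FPKM (5.02), COX7C, of complex IV, at 1350 and 75.6 FPKM (4.17), and ATP5E, of ATP synthase, at 549 and 20.9 FPKM (4.72). In the U2OS-PcTF mean these 4 genes were at 13.4, 11.8, 117 and 43.6 FPKM, in the same order, so U2OS-dTF stood apart from the other stable line too. Mitochondrial ribosomal protein genes followed, with 41 of 75 higher and 2 lower and a median of 1.37 (1.08 on the GC scale). MRPL34 stood highest, at 316 FPKM in U2OS-dTF and 3.75 FPKM in mock cells (6.37). Within bins of length the medians of the respiratory chain and mitochondrial ribosomal lists were 0.94 and 0.77, under the 2-fold limit.

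**Figure D2:**
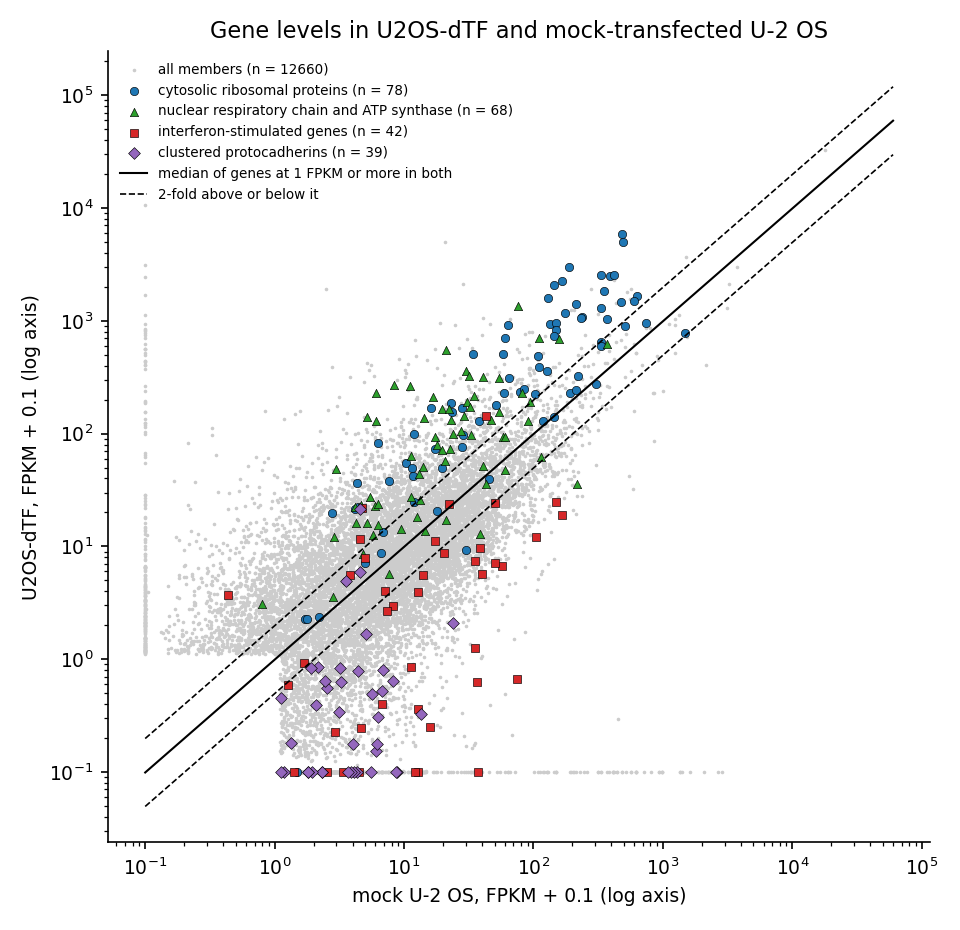
FPKM plus 0.1 of each member in U2OS-dTF (y axis) and in mock U-2 OS (x axis), both on log axes, with 4 gene lists in colour, the centre as a solid line and 2-fold limits as dashed lines. Ribosomal protein genes (56 of 78) and respiratory chain genes (50 of 68) lie mostly above the upper limit, and interferon-stimulated genes (32 of 42) and clustered protocadherins (36 of 39) mostly below the lower one.

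Interferon-stimulated genes stood on the other side. They encode antiviral proteins and are switched on by type I interferon through the factor complex ISGF3. Of 42 members, 32 were 2-fold or more lower in U2OS-dTF (31.7% of all members were) and 4 were higher, with a median of -2.79 (-2.35 on the GC scale). Their summed level was 375 FPKM in U2OS-dTF and 1141 FPKM in mock cells. IFI44, which restrains viral replication, was at 0.566 FPKM in U2OS-dTF and 74.2 FPKM in mock cells, a difference of -6.79. That is about 5 against 536 reads, and the 95% counting interval of the log2 read ratio ran from -8.61 to -5.75. DDX60, a helicase that promotes RNA sensing, was at 0.529 and 36.8 FPKM (-5.86). XAF1, OAS2 and IFI27 were listed at 0 in U2OS-dTF and at 37.5, 12.8 and 11.98 FPKM in mock cells.

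All of these also lay below mock cells in the U2OS-PcTF lines, where the derived mean was 14.2 FPKM for IFI44, 6.67 FPKM for DDX60 and 0.190 FPKM for XAF1. The PcTF-transfected library was above mock cells at 236, 104 and 169 FPKM for the same 3 genes. The 4 members on the higher side were MX1 (3.64 FPKM in U2OS-dTF and 0.333 FPKM in mock cells), IFITM2 (21.6 and 4.67 FPKM), IFITM3 (142 and 43.2 FPKM) and IFI6 (11.5 and 4.45 FPKM). MX1 and the IFITM proteins are themselves antiviral, so not all effectors of the list were on the lower side. IFI6 differed by 1.36, but by -0.034 within bins of length, and the list median was -1.98 with 1 FPKM added.

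The core letters of the interferon-stimulated response element, GAAANNGAAA on either strand, were searched in the 250 bases before the annotated start (RefSeq, GRCh38.p14). Of 35 list members with a matched promoter, 19 held it (54.3%), against 839 of 27305 promoters of all genes (3.07%). Among the lower members 15 of 26 held it, among the higher ones 2 of 3. A match is a description of the letters, not of binding. The 4 stretches of 60 bases below come from genes on the lower side and have the matches in capitals. The stretch of IFI27 lies at chr14:94110616-94110675, plus strand, and IFI44 at chr1:78649729-78649788, plus strand. That of DDX60 lies at chr4:168318771-168318830, minus strand, and GBP1, a guanylate-binding protein gene (0.303 FPKM in U2OS-dTF and 6.69 FPKM in mock cells), at chr1:89065301-89065360, minus strand.
IFI27: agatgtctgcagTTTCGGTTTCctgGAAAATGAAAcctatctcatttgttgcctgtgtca
IFI44: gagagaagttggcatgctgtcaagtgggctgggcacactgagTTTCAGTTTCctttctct
DDX60: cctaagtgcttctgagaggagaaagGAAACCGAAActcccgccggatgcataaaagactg
GBP1: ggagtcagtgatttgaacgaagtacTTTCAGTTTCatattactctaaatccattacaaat

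Inflammatory genes were found on both sides. Of 24 members of the cytokine and NF-kB list, 11 were lower (45.8%) and 8 higher (33.3%), against 31.7% and 28.3% of all members. The median was -0.44. The adhesion molecule ICAM1 and the chemokines CCL5, CXCL10 and CXCL11 were listed at 0 in U2OS-dTF and at 23.1, 14.2, 8.49 and 7.47 FPKM in mock cells. PTGS2, the inducible prostaglandin synthase, was at 0.0804 FPKM in U2OS-dTF and 35.4 FPKM in mock cells (-7.60), which is about 2 against 742 reads with an interval of -11.82 to -6.91. In contrast NFKBIA, which encodes the inhibitor IkB-alpha, was at 673 and 12.01 FPKM (5.81), and LIF, a cytokine of the interleukin-6 family, at 16.01 and 0.551 FPKM (4.64). Of 7 antigen presentation members 3 were lower (42.9%) and 1 higher (14.3%), with a median of -0.40 (-0.95 on the GC scale). With 7 genes these shares do not set the list apart. CD74, the MHC class II invariant chain, was at 0.940 FPKM in U2OS-dTF and 26.3 FPKM in mock cells (-4.65), and B2M, the shared light chain of MHC class I, lay within 2-fold at 415 and 287 FPKM (0.54).

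Matrix genes included large single differences on the lower side. COL3A1, the chain of type III collagen (chromosome 2, 189839099 to 189877472, hg19), was at 0.196 FPKM in U2OS-dTF and 451 FPKM in mock cells. It was also lower in the other libraries, at 3.17 FPKM in the U2OS-PcTF mean and 28.6 FPKM in PcTF-transfected cells, so mock cells were the highest of these groups. The locus holds 4 genes in the tables, so the division of reads there is uncertain. The difference of -10.56 rested on about 6 against 11625 reads (interval -12.60 to -10.03). SOSTDC1, a secreted antagonist of BMP and WNT signals, and POSTN (periostin) were listed at 0 in U2OS-dTF and at 145 and 120 FPKM in mock cells. Fibrillin FBN1 was at 0.0750 and 8.41 FPKM (-5.59), the proteoglycan BGN at 0.154 and 11.6 FPKM (-5.51), and LOX, the collagen cross-linking enzyme, at 13.99 and 72.6 FPKM (-2.35).

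As a list, 32 members of matrix glycoproteins, proteoglycans and elastic fibre had 16 lower (50%) and 5 higher (15.6%), against 31.7% and 28.3% of all members. The median was -1.02 (-1.53 on the GC scale). That median was under 2-fold with 1 FPKM added (-0.94), with no minimum FPKM (-0.78) and within bins of length (-0.75). The 18 collagen members had 6 lower (33.3%, near the 31.7% of all members) and 3 higher (16.7%). Their median was -0.42, which was -1.59 on the GC scale and 0.33 within bins of length. The call for the collagen list thus depended on the centring. COL1A1 and COL6A2 lay within 2-fold, while COL11A1 was at 5.04 FPKM in U2OS-dTF and 108 FPKM in mock cells (-4.37) and COL6A3 at 1.27 and 32.2 FPKM (-4.55). On the higher side stood MFAP5, a microfibril protein, at 112 FPKM in U2OS-dTF and 0.229 FPKM in mock cells (8.43), with 7.14 FPKM in the U2OS-PcTF mean and 0.0871 FPKM in PcTF-transfected cells. THBS2 (thrombospondin 2) was at 7.78 and 0.584 FPKM (3.54) and the proteoglycan OGN at 2.00 and 0.159 FPKM (3.04).

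The integrin and laminin list holds matrix receptors and basement membrane proteins. Of its 23 members 13 were lower (56.5%) and 3 higher (13.0%), against 31.7% and 28.3% of all members. The median was -1.95 (-1.61 on the GC scale). Laminins, the matrix proteins, had 6 of 9 lower with a median of -2.36, and integrins, the receptors, had 7 of 14 lower with a median of -0.93, under the 2-fold limit. ITGAV, the alpha chain of vitronectin receptors, was at 19.4 FPKM in U2OS-dTF and 215 FPKM in mock cells (-3.45). ITGA1, a collagen receptor chain, was at 0.826 and 27.9 FPKM (-4.90), and the laminin chain LAMC1 at 16.9 and 99.9 FPKM (-2.54). The exceptions were ITGB2, the leukocyte integrin beta chain (5.41 and 0.227 FPKM), the epithelial laminin chain LAMB3 (24.0 and 2.94 FPKM) and LAMA5 (4.56 and 2.02 FPKM), the last of which differed by 1.15 but by -0.42 on the GC scale. The list median was -1.05 with 1 FPKM added and -0.87 with no minimum FPKM.

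Clustered protocadherins, adhesion proteins encoded by 3 tandem arrays on chromosome 5, had the highest share of lower members among the lists described here. Of 39 members 36 were lower in U2OS-dTF (92.3%) and 1 was higher (2.56%), against 31.7% and 28.3% of all members. The median was -3.55 (-3.74 on the GC scale). All 11 alpha members, 15 of 16 beta members and 10 of 12 gamma members were lower. The alpha and gamma genes share constant exons, so the division of reads among them is uncertain, but the beta genes have none. PCDHB16 was at 0.224 FPKM in U2OS-dTF and 13.4 FPKM in mock cells (-5.37), with 6.08 FPKM in the U2OS-PcTF mean and 8.24 FPKM in PcTF-transfected cells. PCDHB8 and PCDHB6 were listed at 0 in U2OS-dTF and at 8.65 and 8.55 FPKM in mock cells. The levels were low and 14 members were listed at 0 in U2OS-dTF, so the size depends on the added value: with 1 FPKM added the list median was -1.67.

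Zinc finger genes of the ZNF series, mostly repressors of repeat elements and of other genes, were shifted to lower values over many loci. Of 408 members 229 were lower (56.1%) and 48 higher (11.8%), against 31.7% and 28.3% of all members. The median was -1.25, and -0.89 on the GC scale, under the 2-fold limit. The shift was seen on chromosome 19, which holds large clusters of them, with 107 of 179 lower (median -1.46). It was also seen elsewhere, with 122 of 229 lower (median -1.10). On the GC scale these medians were -1.05 and -0.84, the latter under the 2-fold limit. ZNF141 was listed at 0 in U2OS-dTF and at 14.5 FPKM in mock cells. ZNF542 went the other way, at 64.7 FPKM in U2OS-dTF and 0.255 FPKM in mock cells (7.52), and it was at 17.1 FPKM in the U2OS-PcTF mean and listed at 0 in PcTF-transfected cells.

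**Figure D3:**
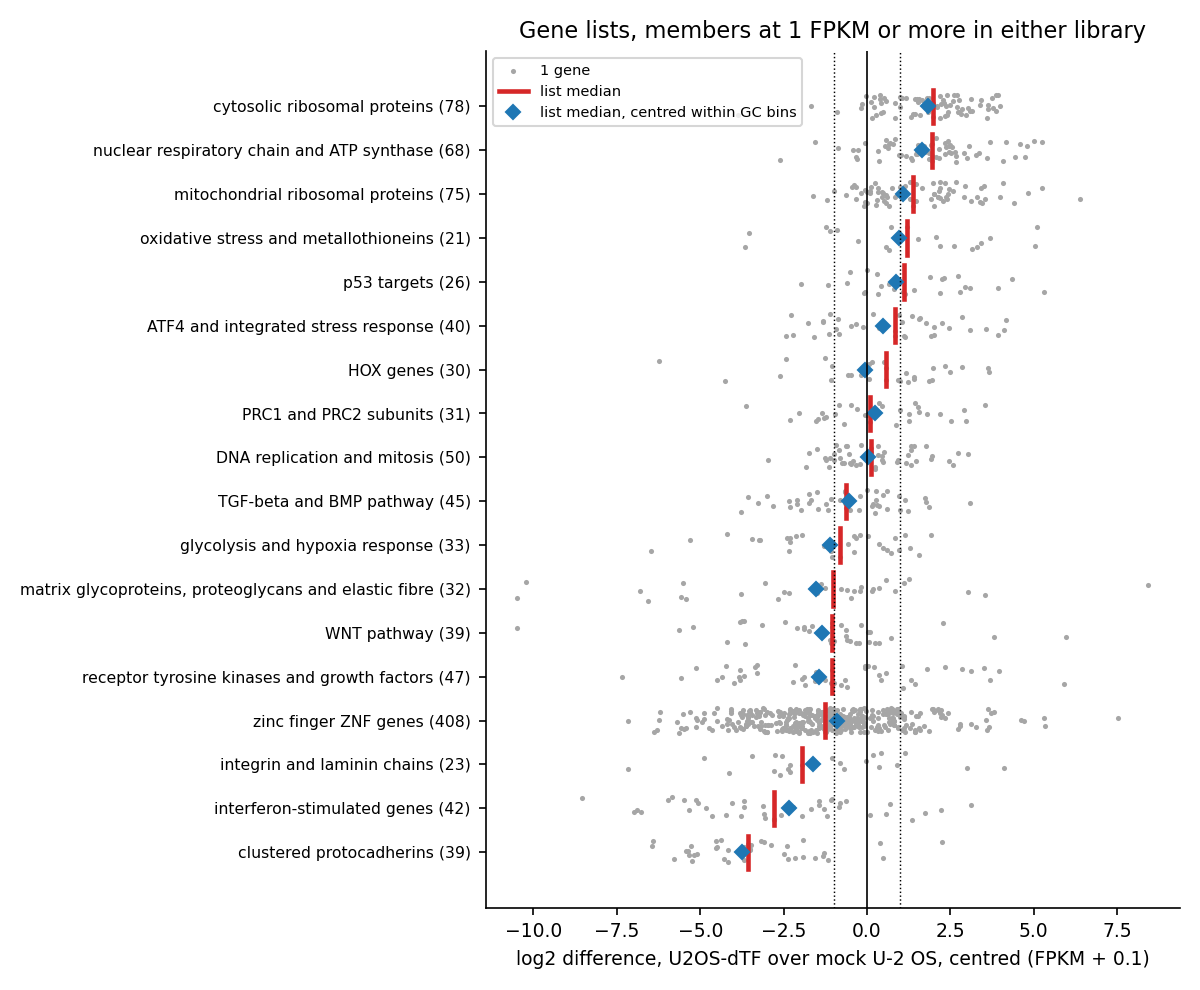
Centred log2 difference of U2OS-dTF over mock U-2 OS (x axis, FPKM plus 0.1) for the members of 18 gene lists, with the number of members in brackets. Grey points are genes, red bars list medians and blue diamonds the medians centred within bins of GC content. Dotted lines mark 2-fold. Medians run from 1.98 for cytosolic ribosomal proteins to -3.55 for clustered protocadherins.

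Metallothioneins, small proteins that bind zinc and copper and are induced by metals, were on the higher side, with 1 exception. MT2A was at 565 FPKM in U2OS-dTF and 17.1 FPKM in mock cells (5.05), MT1E at 347 and 10.2 FPKM (5.09) and MT1X at 89.6 and 10.2 FPKM (3.13). In the U2OS-PcTF mean and in PcTF-transfected cells MT2A was at 191 and 186 FPKM, so mock cells were the lowest of the libraries. MT1G, the remaining member of the family, was listed at 0 in U2OS-dTF and at 1.07 FPKM in mock cells. The letters of the core metal response element, TGCACNC or TGCGCNC on either strand, were searched in the 250 bases before the start. They occurred 7 times for MT2A and 4 times for MT1X, while MT1E and MT1G had no matched promoter. At least 1 match was held by 24.7% of all promoters and 33.4% of the promoters of members. In the wider list described next, 3 of 7 higher members, 1 of 2 lower and 3 of 5 within 2-fold held a match. The stretches of 60 bases nearest to the start that hold such matches are shown with the matches in capitals, MT2A at chr16:56608524-56608583 and MT1X at chr16:56682391-56682450, both plus strand (RefSeq, GRCh38.p14).
MT2A: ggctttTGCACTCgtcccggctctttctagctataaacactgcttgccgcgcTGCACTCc
MT1X: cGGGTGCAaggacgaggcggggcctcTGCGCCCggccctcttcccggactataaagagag

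The wider list of oxidative stress genes and metallothioneins had 11 of 21 members higher and 4 lower (median 1.20, and 0.94 on the GC scale). HMOX1 (haem oxygenase) was at 13.6 FPKM in U2OS-dTF and 1.18 FPKM in mock cells (3.43), NQO1 (a quinone reductase) at 38.5 and 3.86 FPKM (3.30) and the ferritin light chain FTL at 1245 and 205 FPKM (2.62). Targets of the tumour suppressor p53 had 14 of 26 members higher (53.8%) and 2 lower (7.69%). Their median was 1.11 (0.86 on the GC scale). It was under the 2-fold limit with 1 FPKM added (0.89) and with a minimum of 5 FPKM (0.94). CDKN1A, the p21 cell cycle inhibitor, was at 123 and 16.05 FPKM (2.94), FDXR (ferredoxin reductase) at 22.9 and 0.487 FPKM (5.31) and BAX, a pro-apoptotic BCL2 relative, at 10.8 and 0.446 FPKM (4.33). TP53INP1 (2.88 and 11.8 FPKM) and CCNG1 (136 and 310 FPKM) were the lower members.

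ATF4 and integrated stress response genes had 18 of 40 members higher and 9 lower, with a median of 0.84 (0.46 on the GC scale). SLC7A5, an amino acid transporter, was at 20.2 FPKM in U2OS-dTF and 1.04 FPKM in mock cells (4.17) and SHMT2, the mitochondrial serine enzyme, at 126 and 10.7 FPKM (3.56). Of 29 chaperone and unfolded protein members 7 were higher (24.1%) and 8 lower (27.6%), both shares near those of all members (28.3% and 31.7%). CRELD2 and SDF2L1, both of the endoplasmic reticulum, were at 387 and 106 FPKM in U2OS-dTF and 2.67 and 2.14 FPKM in mock cells, whereas HSPA5, the main chaperone of that compartment, was at 73.8 and 194 FPKM (-1.38). The small heat shock gene CRYAB was at 1.42 and 70.6 FPKM (-5.53). DNA replication and mitosis genes had 14 of 50 higher and 9 lower with a median of 0.12, and their higher share of 28% was near the 28.3% of all members.

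Glycolysis and hypoxia genes had 16 of 33 members lower (48.5%) and 4 higher (12.1%), against 31.7% and 28.3% of all members. The median was -0.82 (-1.12 on the GC scale). LDHA, which turns pyruvate to lactate, was at 409 FPKM in U2OS-dTF and 2161 FPKM in mock cells (-2.39). P4HA1, a collagen prolyl hydroxylase subunit, was at 7.64 and 143 FPKM (-4.20), and PDK1, an inhibitor of pyruvate dehydrogenase, at 1.26 and 13.0 FPKM (-3.25). The secreted hormone STC1 was listed at 0 in U2OS-dTF and at 8.97 FPKM in mock cells. The 4 exceptions were enzymes of sugar metabolism, TPI1 (131 and 44.98 FPKM), PFKFB3 (3.69 and 1.63 FPKM), GAPDH (3663 and 1503 FPKM) and ALDOA (345 and 92.2 FPKM). On the GC scale TPI1 remained past 2-fold at 1.02, while PFKFB3, GAPDH and ALDOA were at 0.31, 0.46 and 0.78. GAPDH and ACTB (2288 and 422 FPKM, 2.45) are common reference genes, and the whole reference list of 17 genes had a median of 0.50, which was -0.19 within bins of length. Centred on that list, 2576 members were 2-fold or more higher and 5304 lower, so that 32.7% of the calls were on the higher side, against 47.2% with the centre used here.

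Among signalling genes the share on the lower side was above the 31.7% of all members in each of the 3 lists described here. Of 39 WNT pathway members 20 were lower and 3 higher (median -1.04, and -1.36 on the GC scale). The R-spondin receptors LGR4 and LGR5 were at 0.957 and 2.97 FPKM in U2OS-dTF and at 39.9 and 57.2 FPKM in mock cells, while the ligand WNT7A was at 6.05 FPKM in U2OS-dTF and listed at 0 in mock cells. Of 47 receptor tyrosine kinase and growth factor members 24 were lower (51.1%) and 12 higher (25.5%, near the 28.3% of all members; median -1.05, and -1.43 on the GC scale). ERBB2, the HER2 receptor, was at 47.4 and 0.695 FPKM (5.91) and DDR2, a collagen receptor kinase, at 0.350 and 21.4 FPKM (-5.57). IGF1 was listed at 0 in U2OS-dTF and at 16.5 FPKM in mock cells, and the related ligand IGF2 was at 31.6 and 4.33 FPKM (2.85). TGF-beta and BMP pathway genes had 18 of 45 lower and 6 higher (median -0.63, under the 2-fold limit, and -0.54 on the GC scale). With 1 FPKM added, the medians of the WNT and receptor lists were -0.74 and -0.82.

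HOX genes, which set position along the body axis, differed by cluster. On chromosome 12, 7 of 8 HOXC members were 2-fold or more higher in U2OS-dTF and none lower (median 2.41, and 2.01 on the GC scale). HOXC9 was at 13.8 FPKM in U2OS-dTF and 1.84 FPKM in mock cells (2.86), HOXC8 at 5.29 and 0.982 FPKM (2.33) and HOXC10 at 16.4 and 7.00 FPKM (1.23). In the U2OS-PcTF mean HOXC9 was at 6.67 FPKM and HOXC10 at 18.3 FPKM, and in PcTF-transfected cells they were at 3.31 and 7.58 FPKM, so both stable lines were the higher ones. Of 11 HOXA members on chromosome 7, 6 were lower and 2 higher (median -1.06). HOXA13, the most distal gene of the cluster, was at 0.149 and 18.7 FPKM (-6.22, about 4 against 439 reads, interval -8.89 to -5.65). Over all 30 HOX members 12 were higher (40%) and 7 lower (23.3%), against 28.3% and 31.7% of all members. The median of 0.56 was -0.07 on the GC scale.

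Genes of the polycomb system itself, which the PcTF design addresses, were not shifted as a list. Of 31 PRC1 and PRC2 members and related demethylases 11 were higher (35.5%) and 8 lower (25.8%), with a median of 0.08. Of all members 28.3% were higher and 31.7% lower. EED, the PRC2 subunit that binds H3K27me3, was at 75.9 FPKM in U2OS-dTF and 6.57 FPKM in mock cells (3.52). KDM6A, an H3K27 demethylase, was at 0.713 and 10.0 FPKM (-3.62), and RYBP, of variant PRC1, at 12.4 and 62.7 FPKM (-2.32). CBX8, the source of the PcTF chromodomain that dTF lacks, was at 1.29 and 0.610 FPKM, about 26 against 11 reads, and the interval of -0.06 to 2.17 includes 0. It was at 4.92 FPKM in the U2OS-PcTF mean and 6.43 FPKM in PcTF-transfected cells.

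Of the 14 genes that the study followed as a polycomb panel, 9 were members. Of these 2 were higher (22.2%) and 4 lower (44.4%) in U2OS-dTF, against 28.3% and 31.7% of all members. With 9 genes these shares do not set the panel apart. LAMB3 differed by 3.00 and CLU (clusterin) by 1.09 (102 and 48.1 FPKM). CADM1, an adhesion gene, was at 5.11 and 28.9 FPKM (-2.46), TRIM22 at 5.50 and 13.8 FPKM (-1.30), HOXA6 at 0.288 and 2.03 FPKM (-2.44, 1 against 8 reads) and IRF8 at 0.632 and 2.25 FPKM (-1.67). WT1, HK2 and ATF3 lay within 2-fold. CASZ1, RUNX3 and CDH1 were below 1 FPKM in both libraries, and HOXB4 and CDKN2A were listed at 0 in both.

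Genes that are silent in most adult tissues included large single differences. Of 17 cancer-testis members 8 were higher (47.1%) and 3 lower (17.6%), against 28.3% and 31.7% of all members. PAGE2 was at 99.3 FPKM in U2OS-dTF and listed at 0 in mock and in PcTF-transfected cells, with 33.6 FPKM in the U2OS-PcTF mean. MAGEC2 was at 62.5 FPKM in U2OS-dTF, 0.194 FPKM in the U2OS-PcTF mean, 2.87 FPKM in PcTF-transfected cells and 2.86 FPKM in mock cells, so it was high in U2OS-dTF alone. MAGEA10 was listed at 0 in U2OS-dTF, near 0 in the U2OS-PcTF mean, and at 10.8 FPKM in PcTF-transfected and 8.95 FPKM in mock cells. Of 18 neuronal members 11 were lower (61.1%) and 4 higher (22.2%). The synaptic gene SNAP25 was at 1.12 FPKM in U2OS-dTF and 21.4 FPKM in mock cells (-4.12), and the tubulin gene TUBB3 at 36.4 and 1.18 FPKM (4.85).

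Several large differences on the higher side were spikes of single genes. FBXO10, an F-box protein gene, was at 1904 FPKM in U2OS-dTF and 2.39 FPKM in mock cells (9.59), about 49597 against 52 reads. DDB1, a DNA damage-binding adaptor whose locus holds 4 genes in the tables, was at 4950 and 20.7 FPKM (7.91). In the U2OS-PcTF mean FBXO10 was at 7.07 FPKM and DDB1 at 29.4 FPKM, and in PcTF-transfected cells they were at 2.56 and 18.4 FPKM, so both spikes were present in U2OS-dTF alone. ACAP3 (82.3 and 0.115 FPKM), PRRT3 (97.6 and 0.230 FPKM), TRMT61A (38.1 and 0.0674 FPKM) and PLEKHH3 (37.2 and 0.143 FPKM) were of the same kind, each at 1.17 FPKM or less in the 2 PcTF groups, and have transcripts of 64.7% to 68.2% GC, in the range of the bin of highest GC.

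Other high genes were shared by the stable lines. ITGBL1, which encodes an integrin beta-like protein (chromosome 13, 102104966 to 102368794, hg19), was at 30.4 FPKM in U2OS-dTF and 27.5 FPKM in the U2OS-PcTF mean, against 0.306 FPKM in PcTF-transfected and 0.268 FPKM in mock cells. The non-coding gene FLJ22447 was at 51.6 and 68.4 FPKM in the stable lines, against 1.60 and 0.528 FPKM. S100A2, a calcium-binding protein gene, was at 136 and 41.2 FPKM, against 6.16 and 1.08 FPKM. The reverse pattern was seen for IL2RG, a cytokine receptor chain, at 0.389 FPKM in U2OS-dTF and 0.792 FPKM in the U2OS-PcTF mean, against 79.1 FPKM in PcTF-transfected and 60.2 FPKM in mock cells. IL13RA2, a decoy receptor for interleukin-13, was at 0.295 FPKM in U2OS-dTF and near 0 in the U2OS-PcTF mean, against 40.9 and 45.9 FPKM in the same 2 groups. ZEB2, a regulator of the mesenchymal state, was at 0.115 and 0.154 FPKM, against 6.66 and 11.9 FPKM.

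**Figure D4:**
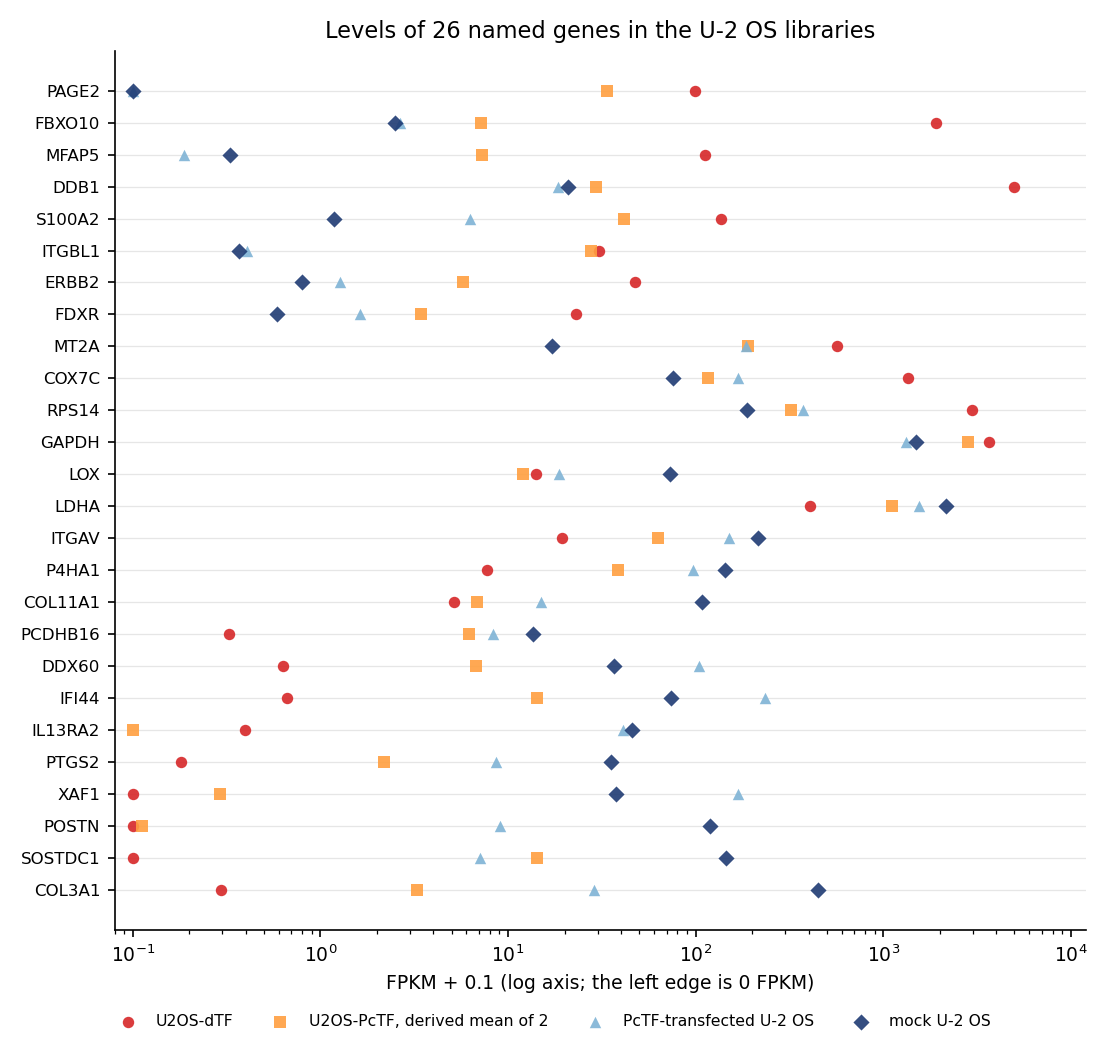
Levels of 26 genes named in the text (rows, in order of the difference between U2OS-dTF and mock) as FPKM plus 0.1 on a log axis. Red circles are U2OS-dTF, orange squares the derived mean of 2 U2OS-PcTF libraries, light blue triangles PcTF-transfected and dark blue diamonds mock U-2 OS. ITGBL1 is at 30.4 and 27.5 FPKM in the stable lines and below 1 FPKM in the others, while FBXO10 is high in U2OS-dTF alone.

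Some entries cannot be read as levels of the named gene. Small nucleolar RNA and microRNA genes are shorter than the fragments, and most were listed at an interval shared with another gene. This held for 102 of 112 small nucleolar RNA members and 38 of 51 microRNA members. Of the 112 small nucleolar RNA members 48 were listed at 0 in U2OS-dTF and 32 in mock cells. Genes that share a locus with a read-through partner, such as HNRNPUL2-BSCL2 and RPL17-C18ORF32, or that have near-identical copies, such as H3F3A, are uncertain in the same way. Those 3 were below 0.01 FPKM in U2OS-dTF and at 13.9, 14.7 and 9.80 FPKM in mock cells. Without the genes that share a locus, 28.3% of 9586 members were higher and 31.1% were lower.

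Whether the distance between the lines was particular to U2OS-dTF was examined with a pair of groups that the comparison did not use. The U2OS-PcTF mean was set against PcTF-transfected cells, which again are stable cells against transfected cells but with PcTF in both. There 11.8% of all members were 2-fold or more higher and 10.4% lower. Of the 3580 members higher in U2OS-dTF than in mock cells, 839 (23.4%) were higher and 208 (5.81%) lower in that pair. Of the 4012 lower members, 811 (20.2%) were lower and 234 (5.83%) higher. For differences of 8-fold or more the shares in the same direction were 32.7% and 39.4%. The second pair also rose with GC content, from a median of -0.15 in the bin of lowest GC to 0.42 in that of highest GC. With centring within GC bins, the shares in the same direction were 18.1% of the higher and 22.6% of the lower members. At 8-fold or more they were 27.7% and 42.2%. Most members called here were within 2-fold in the second pair, with the limits given above. Lists differed as well. Interferon-stimulated genes were lower in both pairs (38 of 42 in the second), but the second pair has a high transfected side, with summed levels of 627 FPKM in the U2OS-PcTF mean and 5211 FPKM in PcTF-transfected cells, against 375 FPKM in U2OS-dTF and 1141 FPKM in mock cells. By contrast, ribosomal protein genes had a median of -0.27 in the second pair with 5 of 78 higher, and clustered protocadherins had a median of -0.39 there.

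Position on the chromosomes was examined over the genes at 1 FPKM or more in both libraries, with centring for GC content. Chromosome 14 stood highest, with a median of 0.67 over 339 genes and 69.5% of them above 0, and chromosome 7 was next at 0.28. In the second pair chromosome 14 was again the highest, at 0.74, with the next one, chromosome 17, at 0.25. Of 8 windows of 10 Mb with at least 10 genes on chromosome 14, 7 had a median above 0. Its highest named genes included EFCAB11 (162 FPKM in U2OS-dTF and 2.50 FPKM in mock cells), CDKN3, a phosphatase of the cell cycle (696 and 30.4 FPKM), and NFKBIA, described above. Chromosomes 6, 18 and 4 were the lowest, at -0.29, -0.24 and -0.23.

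Among 269 windows of 10 Mb over the genome, 19 had a median of 0.5 or more and 39 a median of -0.5 or less on the GC scale. The lowest was the window from 180 to 190 Mb of chromosome 4 with 19 genes and a median of -1.70. It holds IRF2, an interferon regulatory factor (1.16 FPKM in U2OS-dTF and 21.3 FPKM in mock cells). The first 10 Mb of chromosome 18 had a median of -1.23 over 33 genes, 22 of which were lower, such as the kinetochore gene NDC80 (27.9 and 217 FPKM) and THOC1, of the mRNA export complex (16.4 and 92.7 FPKM). Copy number was not measured in these data, and its part in these regional differences was not tested.

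**Figure D5:**
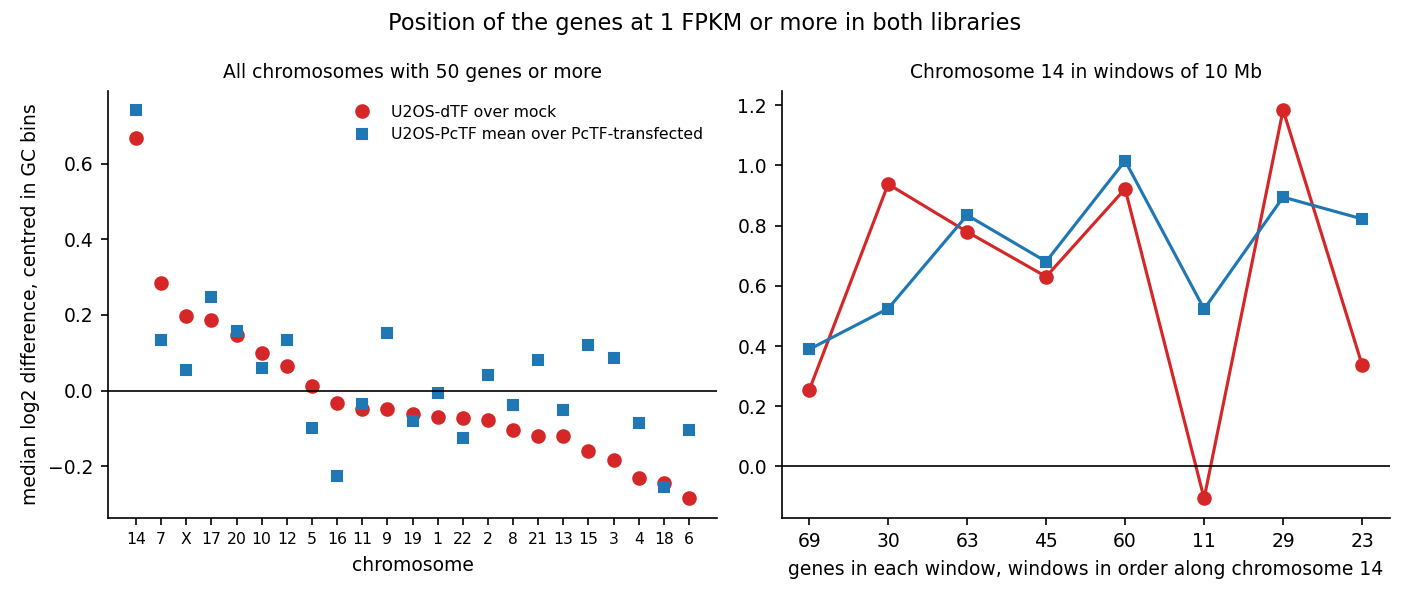
Left, median log2 difference centred within GC bins (y axis) for each chromosome with 50 or more genes at 1 FPKM in both libraries. Right, the same for windows of 10 Mb along chromosome 14, labelled with their numbers of genes. Red circles are U2OS-dTF over mock and blue squares the U2OS-PcTF mean over PcTF-transfected cells. Chromosome 14 is highest in both, at 0.67 and 0.74.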

How the data were processed

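The authors deposited FPKM that Cuffdiff gave for reads aligned to hg19 by TopHat2 2.1.0 and Bowtie2, after amplification of total RNA to cDNA, which can favour some transcripts by length or base composition. The FPKM of the 2 libraries come from separate tables, whose normalization may differ. Fold change, p-value and q-value columns of these tables are the authors' own comparisons and were not used. The column for PcTF in the stable line table is the authors' mean of 3 libraries. The U2OS-PcTF mean was derived from it by taking out the PcTF-transfected library. This takes that library to have the same scale in both tables. In 325 of 16049 genes the pooled value lay within 0.01% of the PcTF-transfected value divided by 3. In 10 genes it lay over 1% below that value, the lowest mean that the other library allows. One library, of U-2 OS cells with the dTF plasmid, was not analysed here. The labels list 1 U2OS-dTF library, whereas the methods name more replicates.

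Depth was read from low values of single-exon genes, with a fragment of 200 bases and a tolerance of 3%. GC content and length were taken from canonical GENCODE transcripts, matched for 94.5% of members. Read numbers use these lengths and are approximate, and intervals are exact (Clopper-Pearson) and cover counting error only, since PCR reads are not independent molecules. Named genes are the 20 highest and 20 lowest members at 5 FPKM or more, the 10 highest listed at 0 on the other side, in every list at most 6 members of largest difference, the polycomb panel with CBX8 and reference genes, the 15 largest FPKM differences each way and the 3 highest and lowest genes of named windows. Others were picked after their values were seen. The members and gene lists were chosen with earlier results of these data known. The calculation was tested on simulated data. Python 3.11, pandas, numpy, scipy and matplotlib were used.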

Additional observations from a re-analysis of the deposited data

How the results depend on the processing

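Under 12 alternative settings the counts of 3580 higher and 4012 lower members gave 24 values, of which 22 stayed within 1.5 times. Without a minimum FPKM 6094 genes were lower, and with a minimum of 5 FPKM 2489 were lower, because more or fewer genes were tested. With 1 FPKM added, 3038 were higher and 3448 lower. Of 288 alternative medians of 24 lists, 53 moved by 1.5-fold or across the 2-fold limit, and no median at 2-fold or more changed sign. Among 1631 alternative values for 140 named genes, 2 had the opposite sign to a called difference, LAMA5 at -0.42 within GC bins and IFI6 at -0.034 within length bins. The median of the reference gene list was -0.19 within length bins, against 0.50 here. Centring on these reference genes lowered every difference by 0.50 and gave a median of -0.63 over all members. Centring within bins of GC content and length, and leaving out genes that share a locus, were chosen after the data had been seen. The cause of these changes was not tested. Depth limits genes of few reads, where 1 read more or less changes a fold. No paired analysis was possible because each group has 1 library and no test was made. Leaving out a replicate was not possible for the same reason.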

Other observations

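Of 37 members of the Hippo, SRF and cytoskeletal list, 15 were 2-fold or more higher and 4 lower (median 0.59, and 0.36 on the GC scale), against 28.3% and 31.7% of all members. On the GC scale 9 were higher and 5 lower, and with centring on reference genes the median was 0.08. TPM2, a tropomyosin, was at 796 FPKM in U2OS-dTF and 92.6 FPKM in mock cells, MYLK, the myosin light chain kinase, at 61.4 and 9.20 FPKM, and the membrane repair gene MYOF at 29.7 and 0.894 FPKM. MYOF was also at 33.2 FPKM in the U2OS-PcTF mean and at 1.55 FPKM in PcTF-transfected cells, so it was high in both stable lines. TAGLN, a smooth muscle gene of the same list, was at 0.180 and 2.14 FPKM. Keratins, epithelial filament genes, had 7 of 12 members higher and 3 lower (median 1.73), and on the GC scale 5 higher and 3 lower (median 0.75). KRT8 was at 39.2 FPKM in U2OS-dTF and 11.05 FPKM in mock cells.

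Of 26 AP-1 and immediate early members 12 were higher (46.2%) and 6 lower (23.1%), against 28.3% and 31.7% of all members. The median was 0.66. On the GC scale 7 were higher and 8 lower (median 0.35), so the lean to the higher side depended on the centring. FOSL1, an AP-1 subunit, was at 99.9 FPKM in U2OS-dTF and 4.05 FPKM in mock cells, while SPRY2 and SPRY4, feedback inhibitors of receptor tyrosine kinases, were at 0.271 and 0.182 FPKM in U2OS-dTF and at 5.69 and 2.46 FPKM in mock cells. HOTTIP, a long non-coding RNA transcribed beside HOXA13, was listed at 0 in U2OS-dTF and at 1.495 FPKM in mock cells. NEAT1, the RNA of paraspeckles, was at 745 and 250.9 FPKM and SNHG6, a host of small nucleolar RNA, at 802 and 96.6 FPKM.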
